A study of Mus musculus with 6 samples.

Results

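The genes described here encode the subunits of the N-methyl-D-aspartate (NMDA) receptor, the target of the drug given in this study. They were taken as all probe sets of the deposited table whose platform annotation includes Grin1, Grin2a, Grin2b, Grin2c, Grin2d, Grin3a or Grin3b. Of these 7 genes, 5 had a probe set (Grin2a, Grin2c, Grin2d, Grin3a and Grin3b), with 1 probe set each among 25150 in all, and each of the 5 probe sets carried that single symbol. No probe set of the table is named Grin1 or Grin2b in the annotation used, so neither gene was analysed here. Adrenal RNA came from adult female C57Bl/6J mice at 21 weeks of age. In the CGP group the mothers were dosed orally with CGP 39551, a competitive NMDA receptor antagonist (5 mg/kg), during pregnancy and up to weaning, whereas the mothers of the control group are labelled as controls. The labels do not say whether control mothers received a vehicle. Each group had 3 Affymetrix whole-transcript arrays of RNA pooled from 18 mice, and the exposure through the mother ended at weaning, long before the adrenals were taken. Nothing says that the arrays of a group carried separate pools, so the p-values cover the array-to-array spread alone, and that spread may be technical.

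The NMDA receptor is a cation channel that opens when glutamate and a co-agonist, glycine or D-serine, are bound together and the membrane is depolarised. Every such channel holds the subunit encoded by Grin1, which binds the co-agonist. Grin2 genes encode the subunits that bind glutamate and set the kinetics of the channel, and Grin3 genes encode subunits that bind glycine and lower calcium permeability. The receptor is best known from synapses of the brain. In the adrenal gland, the neural crest derived chromaffin cells of the medulla are excitable, and the cortex makes steroid hormones.

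All values are log2 expression values, and a difference is the mean of the CGP arrays minus the mean of the control arrays on that scale. Among markers of adrenal tissue, all 10 cortex genes and all 13 measured chromaffin genes listed lay above background on every array. So did 26 of 29 measured hepatocyte markers, 16 of 17 measured adipocyte markers and all 3 measured Schwann and sustentacular markers. Of 5 measured brain neuron and astrocyte markers, 2 lay above background on every array and 1 under it on every array. Lying above background thus does not single out adrenal tissue. As a measure of background served the upper quartile (75th percentile), on the same array, of 150 sensory receptor probe sets (olfactory, vomeronasal and trace amine receptors, best known from the nose). It was 6.55, 6.45 and 6.46 on CGP arrays 1, 2 and 3, and 6.49, 6.64 and 6.60 on control arrays 1, 2 and 3. The arrays thus differed in background by up to 0.20. Only sensory receptor probe sets of the deposited table could be used. Whether that table holds all probe sets of the array was not tested. Probe sets differ in how well they bind their target, so the levels of different genes were not ranked. A value under background does not show that the gene was silent, and a value above it does not show that the gene was expressed.

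By this measure Grin2c lay above background on all 6 arrays, Grin2d on 5 and Grin3b on 4, whereas Grin2a and Grin3a lay under it on every array. Of the 5 genes, 0 passed the test between CGP and control (limma, adjusted p under 0.05 over all 25150 probe sets), and 0 had an unadjusted p under 0.05, against 3719 (14.8%) of all probe sets. Of all probe sets, 348 (1.38%) passed the same test, 139 higher (0.553%) and 209 lower (0.831%). After the median of the sensory receptor probe sets had been subtracted from each array, 167 passed, 34 higher and 133 lower. The groups overlapped for all 5 subunit genes, and they did not overlap at 22.5% of all probe sets. With only 5 genes, counts of 0 beside these shares say little about the subunit genes.

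**Figure D1:**
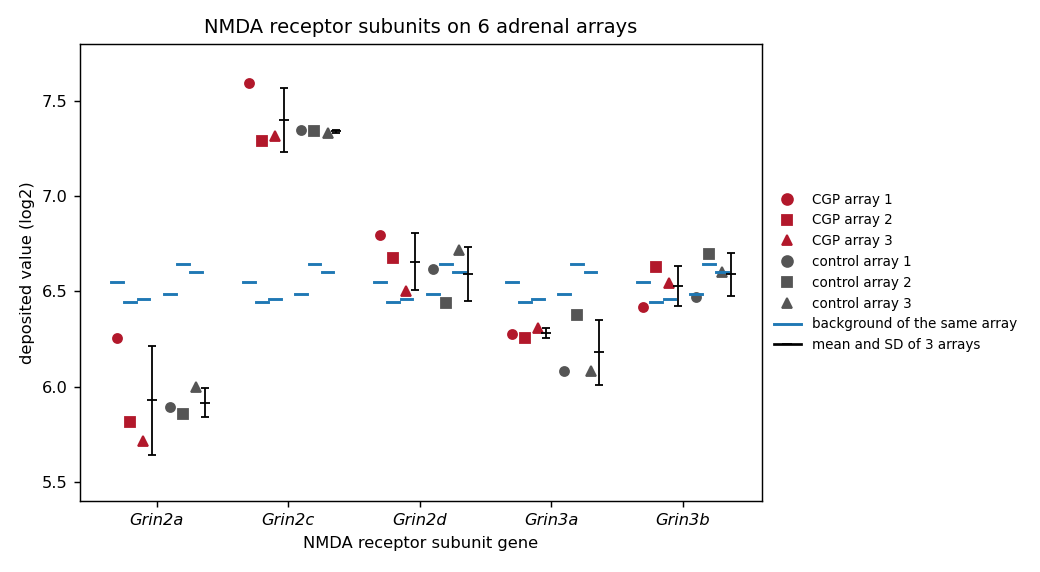
Deposited log2 values (vertical axis) of the 5 measured NMDA receptor subunit genes (horizontal axis) on the 3 CGP arrays (red) and the 3 control arrays (grey), with the array number as the symbol, black marks for the group mean with its SD and the background of the same array as a blue line. All 6 values of Grin2c lie above the blue lines and all 6 values of Grin2a and of Grin3a lie under them.

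Grin2c encodes GluN2C, the glutamate-binding subunit known from cerebellar granule cells and astrocytes. It had 7.60, 7.29 and 7.32 on CGP arrays 1, 2 and 3, and 7.35, 7.34 and 7.33 on control arrays 1, 2 and 3. The 3 control values lay within 0.02 of each other (SD 0.0075), whereas CGP array 1 stood above the other 5 arrays, and both remaining CGP arrays lay under all 3 controls. The means were 7.40 ± 0.17 in CGP and 7.34 ± 0.0075 in control (SD, n = 3 arrays each). Grin2c exceeded its array's background by between 0.70 and 1.05, and it stood between percentiles 92.0 and 95.3 of the sensory receptor probe sets of each array. The difference was 0.06 (SE 0.09, limma adjusted p = 0.782), with a 95% confidence interval of -0.15 to 0.27, or 0.899-fold to 1.21-fold. Without CGP array 1 it was -0.038, so the sign of the difference rested on that array. Since the RNA was extracted from whole glands, fewer cells of a type and less RNA per cell cannot be told apart for this gene or any other here.

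Grin2d encodes GluN2D, a glutamate-binding subunit of slow channels that is prominent early in brain development. It had 6.79, 6.67 and 6.50 on CGP arrays 1, 2 and 3, and 6.62, 6.44 and 6.72 on control arrays 1, 2 and 3. CGP array 1 was the highest and control array 2 the lowest, and control array 2 was also the only array on which Grin2d lay under background. The distance to background ran from -0.21 to 0.25, and the percentile among the sensory receptor probe sets from 62.0 to 84.7. The difference was 0.07 (SE 0.10, limma adjusted p = 0.800, 95% confidence interval -0.18 to 0.31). It became -0.004 without CGP array 1 and -0.012 without control array 2.

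Grin2a encodes GluN2A, the glutamate-binding subunit that prevails in the adult forebrain. It had 6.26, 5.81 and 5.71 on CGP arrays 1, 2 and 3, and 5.89, 5.85 and 6.00 on control arrays 1, 2 and 3. All 6 values lay under background, by 0.29 at the least on CGP array 1 and by 0.79 at the most on control array 2. On CGP array 3 only 4% of the sensory receptor probe sets were dimmer, against 52.0% on CGP array 1. The difference was 0.01 (SE 0.14, limma adjusted p = 0.978, 95% confidence interval -0.34 to 0.36), and it was -0.15 without CGP array 1 and -0.019 without control array 2. With every array under background, this comparison cannot show whether Grin2a changed. CGP array 1 was the highest of the 6 arrays for Grin2a, Grin2c and Grin2d, all 3 of the measured Grin2 genes.

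Grin3a encodes GluN3A, a glycine-binding subunit of young neurons. It had 6.27, 6.26 and 6.31 on CGP arrays 1, 2 and 3, and 6.08, 6.37 and 6.08 on control arrays 1, 2 and 3. Each CGP value lay above 2 of the 3 controls and under control array 2, the array with the highest background. Grin3a stood between percentiles 32.0 and 64.0 of the sensory receptor probe sets, and lay under background by 0.15 to 0.52. The difference of 0.10 was the largest of the 5 genes (SE 0.09, limma adjusted p = 0.633, 95% confidence interval -0.11 to 0.31). It was 0.20 without control array 2 (adjusted p = 0.219), the smallest adjusted p of any subunit gene in any of the alternative fits. As for Grin2a, values under background cannot show whether the gene changed.

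Grin3b encodes GluN3B, the glycine-binding subunit known from motor neurons. It had 6.42, 6.63 and 6.54 on CGP arrays 1, 2 and 3, and 6.47, 6.70 and 6.60 on control arrays 1, 2 and 3. It lay above background on 2 arrays of each group, by at most 0.18, and between percentiles 66.7 and 82.0 of the sensory receptor probe sets. Its highest value was on control array 2, where the background was also highest, and its lowest was on CGP array 1, where Grin2a, Grin2c and Grin2d were at their highest. Grin3b was the single subunit gene with a lower mean in the CGP group, at -0.06 (SE 0.08, limma adjusted p = 0.764, 95% confidence interval -0.26 to 0.14). It was -0.12 without control array 1 and -0.0047 without CGP array 1.

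The precision of these arrays sets what could have been called. The weakest call in the whole table had a difference of 6.23 times its SE, and at the SE of the subunit genes this corresponds to a change of 1.42-fold for Grin3b, 1.46-fold for Grin2c and for Grin3a, 1.56-fold for Grin2d and 1.86-fold for Grin2a. A smaller change in any of them would not have passed the test. The median difference of the 5 genes was 0.06, against -0.01 over all probe sets and -0.05 over the 150 sensory receptor probe sets. Of these 150, 0 passed the test (limma) and 5 had an unadjusted p under 0.05, and their differences ran from -0.22 at the 5th percentile to 0.09 at the 95th. Grin2a, Grin2c, Grin2d and Grin3b fell inside that range, and Grin3a lay just above it.

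Grin2c was the subunit gene above background on every array, and the genes whose 6 values were most like it among 13445 other probe sets of 1 symbol above background were Taf4, a subunit of the general transcription factor TFIID (Pearson r = 0.985 over 6 arrays), Ccnb2, a mitotic cyclin (r = 0.975), and Rapgef3, a cAMP-activated exchange factor (r = 0.975). Taf4 had 9.01, 8.90 and 8.91 on CGP arrays 1, 2 and 3, and 8.91, 8.91 and 8.91 on control arrays 1, 2 and 3. Like Grin2c, these genes were highest on CGP array 1, and 32 of the probe sets compared reached an r over 0.9; the r is a description over 6 arrays, of which 1 stands apart.

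The other glutamate receptor genes also showed no call. Of 19 listed AMPA, kainate, delta and metabotropic receptor genes, 12 had a probe set, 6 lay above background on all arrays and 5 under it on all arrays. None passed the test and 0 had an unadjusted p under 0.05 (limma), against 1.38% and 14.8% of all probe sets. For 12 genes, 0 calls is near that share of 1.38%. Among those above background, the AMPA receptor subunit Gria3 had 8.32, 8.40 and 8.39 on CGP arrays 1, 2 and 3, and 8.32, 8.08 and 8.21 on control arrays 1, 2 and 3, with a difference of 0.16 (SE 0.07, limma adjusted p = 0.353). The kainate receptor subunits Grik3, Grik4 and Grik5 differed by -0.02, -0.09 and -0.11, the delta receptor Grid1 by 0.04 and the metabotropic receptor Grm2 by -0.11.

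**Figure D2:**
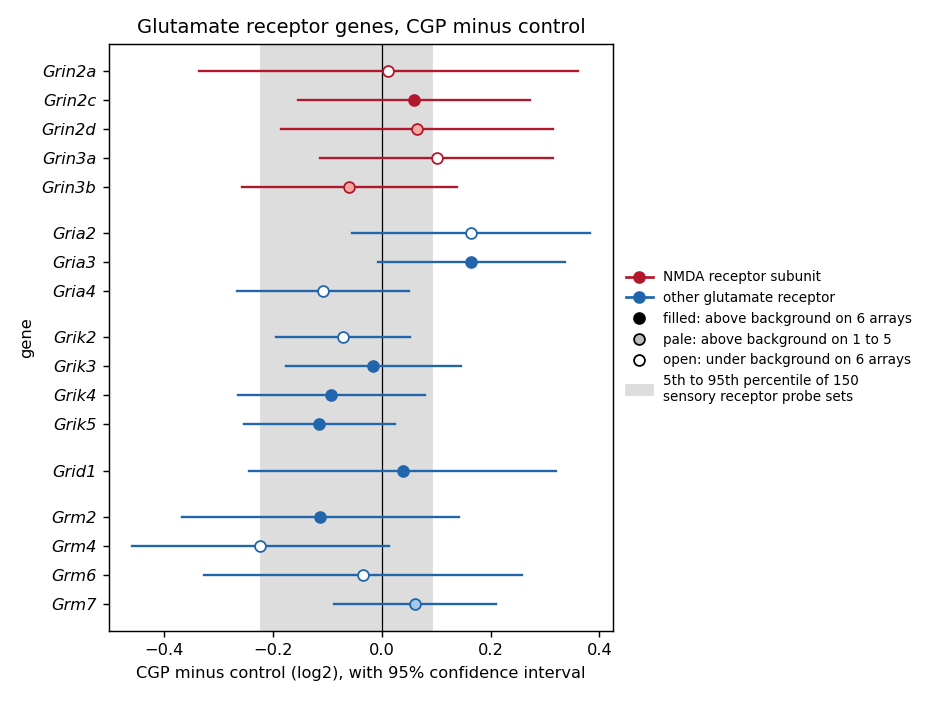
CGP minus control in log2 units (horizontal axis) for each measured glutamate receptor gene (vertical axis), with the 95% confidence interval from limma as a line. NMDA receptor subunits are red and other receptors blue, the fill gives the number of arrays above background, the grey band runs from the 5th to the 95th percentile of the 150 sensory receptor probe sets, and every interval includes 0.

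Genes of proteins that hold the receptor at the membrane or act downstream of it had no call either. Of 28 listed scaffold and anchoring genes 25 had a probe set, 20 of them above background on all arrays, and 0 passed the test while 6 had an unadjusted p under 0.05 (limma, median difference -0.02). Of 22 listed genes of receptor signalling, such as the calcium/calmodulin-dependent kinases, calcineurin and neuronal nitric oxide synthase, 21 had a probe set, 0 passed and 1 had an unadjusted p under 0.05 (median 0.01). Over all probe sets, 1.38% passed and 14.8% had an unadjusted p under 0.05 (limma). With so small a share passing, 0 calls in lists of this size says little about their genes. The scaffold gene Dlg2, which encodes PSD-93, had 9.23, 9.29 and 9.31 on CGP arrays 1, 2 and 3, and 9.06, 8.98 and 9.08 on control arrays 1, 2 and 3 (difference 0.24, limma adjusted p = 0.110). It passed when the test was limited to probe sets of 1 symbol above a minimum level, where 566 probe sets passed in all. In every other alternative fit 0 scaffold genes passed.

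Some genes that supply ligands of the receptor were called. Of 17 listed genes that make, carry or break down glycine and serine, 16 had a probe set, 3 rose, 0 fell and 13 did not pass, with a median difference of -0.06. Over all probe sets, 0.553% were called higher and 0.831% lower. All 3 that rose were transporters. The listed transporters Slc6a9 (-0.17, limma adjusted p = 0.219) and Slc1a4 (-0.27, limma adjusted p = 0.195) instead had lower means in CGP and did not pass. Gldc had the lowest difference of the list (-0.36, limma adjusted p = 0.118) and did not pass either. Slc6a5, the glycine transporter GlyT2, had 10.35, 10.34 and 10.33 on CGP arrays 1, 2 and 3, and 9.90, 9.89 and 9.91 on control arrays 1, 2 and 3, a rise of 1.36-fold (0.44, SE 0.04, limma adjusted p = 0.00501). Slc1a5, the neutral amino acid transporter ASCT2, rose 1.37-fold (10.75 ± 0.03 in CGP and 10.30 ± 0.04 in control, SD, n = 3, limma adjusted p = 0.00769). Slc7a10, the transporter Asc-1 of glycine and D-serine, had 9.23, 9.17 and 9.08 on CGP arrays 1, 2 and 3, and 8.62, 8.71 and 8.57 on control arrays 1, 2 and 3, a rise of 1.44-fold (limma adjusted p = 0.0147). The groups did not overlap for any of the 3 transporters, as for 22.5% of all probe sets. These 3 were named for their calls on the same values, so the lack of overlap adds no support. In the same arrays 14 of 17 measured adipocyte markers rose, with a summed linear signal of 44249 to 44746 in CGP and 31542 to 32287 in control and with 1 marker, Lep, under background on every array. Slc7a10 is also known as a surface protein of adipocytes. Ucp1 had the largest rise of the adipocyte list (1.22), and the part of adipocytes, white or brown, in the 3 transporter results was not tested. The call of Slc6a5 was lost without CGP array 2 (adjusted p = 0.0527), that of Slc1a5 without CGP array 1 or 2 (up to 0.0690), both also after the sensory receptor median was subtracted (0.0566 and 0.0522), and that of Slc7a10 without CGP array 1 or 2 or control array 1 or 3 (up to 0.103).

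The kynurenine pathway breaks down tryptophan and yields quinolinate, an agonist of the receptor, and kynurenate, an antagonist. Of 13 listed genes 11 had a probe set, 3 fell, 0 rose and 8 did not pass, with a median difference of -0.29. Over all probe sets, 0.831% were called lower and 0.553% higher. Tdo2, the dioxygenase that opens the pathway, had 6.85, 7.13 and 6.92 on CGP arrays 1, 2 and 3, and 7.88, 7.52 and 7.78 on control arrays 1, 2 and 3, and was 1.69-fold lower in CGP (limma adjusted p = 0.0405). Kynu, kynureninase, was 1.64-fold lower (6.86 ± 0.08 in CGP and 7.57 ± 0.15 in control, SD, n = 3, limma adjusted p = 0.0207). Kmo, kynurenine 3-monooxygenase, fell by 0.64 (limma adjusted p = 0.0220) and lay under background on 2 of the 3 CGP arrays, and with these at background it was 1.49-fold lower. All 3 are known to be abundant in liver, and in the same arrays 25 of 29 measured hepatocyte markers fell, with a summed linear signal of 35751 to 36282 in CGP and 53755 to 54490 in control and with Cyp7a1, Cyp1a2 and Uox under background on all CGP arrays. The part of hepatocyte RNA in these results was not tested. Tdo2 kept its call only without control array 2 and lost it without each of the other 5 arrays (adjusted p up to 0.183), Kmo lost it without each array except CGP array 3 (up to 0.132) and Kynu lost it without each of the CGP arrays and without control array 2 (up to 0.124). All 3 also lost it after the sensory receptor median was subtracted (adjusted p 0.0645 to 0.107).

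**Figure D3:**
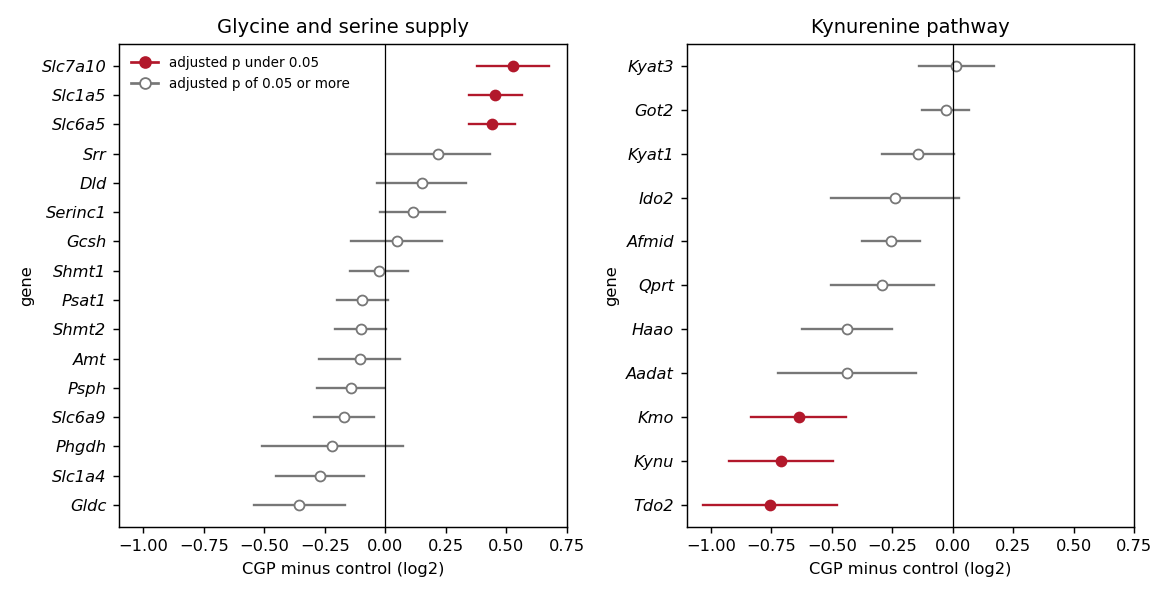
CGP minus control in log2 units (horizontal axis) for the measured genes (vertical axis) of glycine and serine supply (left) and of the kynurenine pathway (right), with the 95% confidence interval from limma as a line and red filled points for an adjusted p under 0.05. The 3 red points on the left, Slc7a10, Slc1a5 and Slc6a5, lie above 0, and the 3 on the right, Kmo, Kynu and Tdo2, lie under 0.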

How the data were processed

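Per the labels, RNA was extracted from snap frozen adrenals and labelled cDNA was hybridised to 6 arrays. The authors deposited 1 table of log2 values, and the submitters' processing notes name RMA (background correction, quantile normalisation and summary per probe set) and Partek, and the genome build is not given in the sources used here. The table spans 3.75 to 14.6, with array medians of 7.91 to 7.96. Arrays have no read depth, so their number limits the precision.

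Platform annotation gave 16769 probe sets 1 symbol, 1031 several and 7350 none. All 25150 were fitted with limma 3.58.1 in R 4.3.3 (lmFit, eBayes, two-sided, no covariates) with no filter and Benjamini-Hochberg adjustment over all, and called at an adjusted p under 0.05. A filter of log2 6 on 3 arrays would have kept 4 of the 5 subunit genes. Lists used the brightest probe set of 1 symbol per gene. Every subunit gene was named, with each called gene of the pathway lists, the other glutamate receptors above background on all arrays, and the 3 genes most like each subunit gene above background on all arrays. Dlg2, Gldc, Slc6a9, Slc1a4, Ucp1, Lep, Cyp7a1, Cyp1a2 and Uox were named after their values were seen. Members and lists were chosen with earlier results of these data known. The test was checked on data simulated with independent normal noise for each probe set. That check does not cover deviations shared by the probe sets of an array. Alternatives covered the filter, quantile normalisation, median centring, the variance model, the array number as a block, the background level and leaving out each array. Subtracting each array's sensory receptor median was added after seeing the data.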

Additional observations from a re-analysis of the deposited data

How the results depend on the processing

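The count of subunit genes called stayed at 0 in all 12 alternative fits, 1 of which (the filter) left out Grin2a. Their differences with 1 array left out ran from -0.15 to 0.12 for Grin2a, -0.038 to 0.12 for Grin2c, -0.012 to 0.14 for Grin2d, 0.05 to 0.20 for Grin3a and -0.12 to -0.0047 for Grin3b, so that the sign turned for the 3 Grin2 genes. No scaling, filter, variance model or block turned a sign. Against the median of the sensory receptor probe sets 3 subunit genes lay above background on every array and 0 under it on every array, and against their 90th percentile Grin2c alone stayed above and 4 lay under on every array.

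The count of 348 probe sets called (139 higher, 209 lower) was 566 with the filter (311 higher) and 569 with a variance trend and robust prior (304 higher). Leaving out 1 array gave 135 to 293, with 22 to 117 higher and 113 to 176 lower. With the array number as a replicate block 57 passed (6 higher, 51 lower), with 0 of the glycine and serine list and 0 of the kynurenine list. Labels do not say that a number pairs arrays, and same-numbered arrays deviated from their group means with correlations of -0.37, -0.10 and -0.13. With the receptor median subtracted, 167 passed (34 higher, 133 lower), 1 of the glycine and serine list and 0 of the kynurenine list. With the filter 1 scaffold gene (Dlg2) rose, 1 glycine and serine gene (Gldc) fell and 5 kynurenine genes fell. Leaving out 1 array gave 0 to 3 higher and 0 to 1 lower in the glycine and serine list and 0 to 1 lower in the kynurenine list. The cause of these shifts was not tested.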
